A study of Homo sapiens with 39 samples.

Results

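The genes whose response to talazoparib changed when enzalutamide was also given were sought in 12 of the 39 RNA-sequencing libraries of the series. All 12 libraries came from C4-2B cells, a castration-resistant prostate cancer line derived from LNCaP, treated for 5 days with DMSO, with 20 µM enzalutamide (an inhibitor of androgen signaling, ARPi), with 10 nM talazoparib (a PARP inhibitor, PARPi), or with both drugs (the combination), with 3 replicates in each of these 4 groups. The other 27 libraries hold 5 days of 5 µM abiraterone, 1 µM olaparib or both, and a separate time course of olaparib. For each gene the departure from additivity, called the interaction here, was the log2 fold change of the combination against enzalutamide minus that of talazoparib against DMSO. An interaction of 0 means that talazoparib moved the gene by the same factor with and without enzalutamide, a negative value means less of a rise or more of a fall with enzalutamide, and a positive value the reverse.

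Androgens sustain the growth of prostate epithelium and of most prostate cancers, and enzalutamide blocks their action on transcription. PARP1 and PARP2 bind DNA breaks and mark nearby proteins with ADP-ribose, and inhibitors such as talazoparib trap them on DNA, so that replication meets lesions that call on homologous recombination and on p53 signaling. The question behind the design was what underlies the benefit of giving drugs of both classes, and the interaction asks on which transcripts one drug altered the response to the other.

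Depth was high and even, with 29391817 to 49833473 counts in a library (median 40295618). Replicates of a group differed by more than counting noise, with a chi-square per degree of freedom of 2.84 to 5.63, so no library was a duplicate of another in its group. The 12 prostate epithelial markers checked were all present, and 10 of 16 markers of basal epithelium, smooth muscle, fibroblasts, endothelium and blood cells were below 1 CPM (counts scaled to the effective size of each library) in every library. The sum of those 16 markers was 29.9 to 38.2 CPM with DMSO, 34.5 to 34.7 with enzalutamide, 40.2 to 42.2 with talazoparib and 44.9 to 46.1 with the combination. Mitochondrial genes took 9.68 to 10.1% of counts with DMSO, 11.3 to 12.3% with enzalutamide, 12.1 to 13.0% with talazoparib and 13.5 to 13.8% with the combination. The part of either shift in the results below was not tested. Because these are bulk libraries of a treated culture, a change in the share of cells in one state and a change in RNA per cell cannot be told apart.

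Of 18625 genes tested, 2346 (12.6%) departed from additivity at an adjusted p under 0.05. Of these, 991 (5.32% of genes tested) had a positive interaction and 1355 (7.28%) a negative one. That split depends on the scaling of the libraries and on single libraries. With plain total counts 1216 were positive and 944 negative, and with a stricter filter on low counts 1292 were positive and 1096 negative. Most departures were small. Among called genes the median absolute interaction was 0.28 on the log2 scale (quartiles 0.194 and 0.442), 495 genes reached 0.5 (240 positive and 255 negative), and 57 positive and 81 negative reached 1. The median over all genes tested was -0.026. Positive genes outnumbered negative ones on leaving out any 1 of the talazoparib or combination libraries, with 1312 positive and 977 negative without talazoparib replicate A, 973 and 751 without B and 1079 and 747 without C, and 1185 and 937, 1023 and 767, and 992 and 692 without combination replicate A, B or C. Negative genes stayed the more numerous on leaving out any 1 of the DMSO or enzalutamide libraries.

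Talazoparib alone raised 3435 genes (18.4% of those tested) and lowered 2865 (15.4%), and on enzalutamide it raised 3077 (16.5%) and lowered 3337 (17.9%). These steps come from separate libraries. Among the 1355 genes with a negative interaction, the largest group was 485 that talazoparib raised alone and that did not pass the threshold with enzalutamide. A further 411 were lowered only in the presence of enzalutamide, 165 rose in both settings but less with enzalutamide, 139 fell in both settings and further with enzalutamide, and 123 turned from a rise into a fall. Among the 991 genes with a positive interaction, 349 rose only with enzalutamide present, 319 fell only without it, 112 turned from a fall into a rise, 97 rose further and 90 fell less. Read from the side of enzalutamide, the same interaction compares enzalutamide against DMSO (5028 genes higher, 27.0%, and 4891 lower, 26.3%) with the combination against talazoparib (5422 higher, 29.1%, and 5524 lower, 29.7%). Of the genes with a negative interaction, 595 fell with enzalutamide in both settings and further with talazoparib present, 293 fell only with talazoparib present and 223 rose less with it. Of those with a positive interaction, 408 rose in both settings and further with talazoparib present, 276 rose only with it and 150 fell less. Here "only" describes which side of the threshold each step fell on, and the interaction is the test of the difference.

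**Figure D1:**
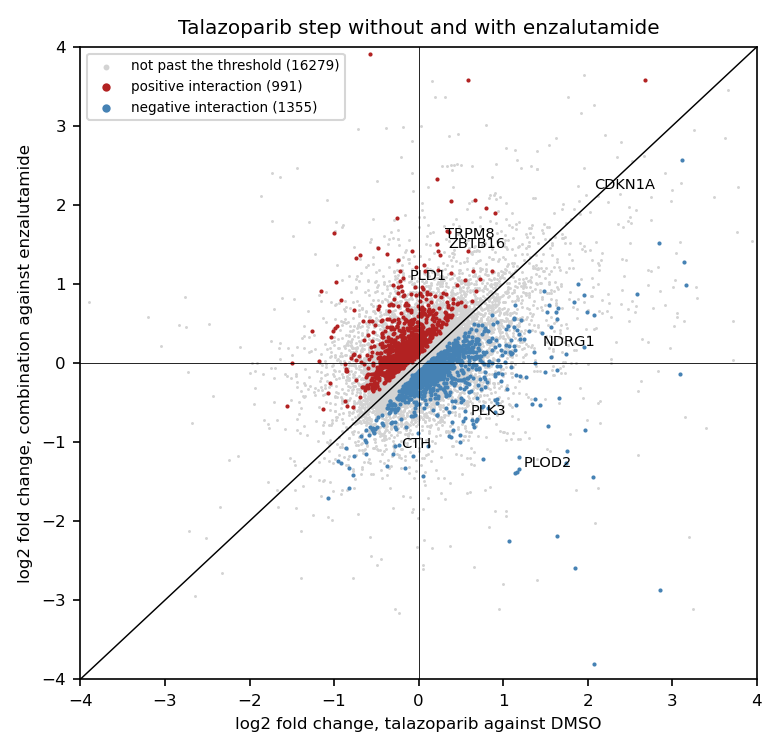
Each point is a gene, with the log2 fold change of talazoparib against DMSO on the horizontal axis and of the combination against enzalutamide on the vertical axis, and the diagonal marks additivity. The 991 genes with a positive interaction lie above the diagonal and the 1355 with a negative one below it, and 88 of the 18625 genes fall beyond the axes.

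Called genes were also sorted by whether the interaction opposed or followed the sum of the single-agent changes. It opposed that sum in 1363 genes (58.1% of called genes, median absolute interaction 0.318), which are called antagonized here, and followed it in 983 (41.9%, median 0.234), called enhanced. The sum shares libraries with the interaction, so the sorting is a description without a test. In 449 antagonized and 410 enhanced genes the sum was under 0.25 in size, and for these genes the name rests on a small value. Both single agents moved 619 of the called genes in the same direction and 535 in opposite directions. For 400 called genes the combination did not pass the threshold against DMSO, which 62.4% of all genes tested did.

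Of the 30 lists examined, the hypoxia and glycolysis genes had the largest share of members with a negative interaction, 68.8%. Of 32 members tested, 22 had a negative interaction and none a positive one, against 7.28% and 5.32% of all genes, and the median interaction of the list was -0.36. Talazoparib alone raised 23 members and lowered none, while on enzalutamide it raised 2 and lowered 11. Of all genes it raised 18.4% and lowered 15.4% alone, and raised 16.5% and lowered 17.9% on enzalutamide, and the counts of these steps in the lists that follow stand beside those shares. In 9 members the rise with talazoparib alone turned into a fall, and in 12 members the rise did not pass the threshold with enzalutamide present. Enzalutamide itself lowered 18 members (26.3% of all genes tested were lowered) and raised 6 (27.0%).

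NDRG1, a gene induced by both androgen and low oxygen (GENCODE v44, GRCh38, chromosome 8, 133237175 to 133302022), showed this in full. It was measured at 178, 152 and 138 CPM in the 3 DMSO libraries, 68.7, 71.5 and 60.9 with enzalutamide, 396, 411 and 398 with talazoparib and 76.4, 73 and 70.9 with the combination. The talazoparib libraries stood above all DMSO libraries, and the combination libraries overlapped the enzalutamide ones. The talazoparib step was 1.37 alone and 0.13 with enzalutamide (log2 fold changes), an interaction of -1.23 ± 0.13 (SE, adjusted p = 1.43e-05).

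ALDOC, which encodes the brain-type aldolase of glycolysis, held 59.6, 49.3 and 41.1 CPM with DMSO, 60.7, 59.8 and 49.9 with enzalutamide, 93.4, 111 and 108 with talazoparib and 67.8, 67.3 and 62 with the combination. The talazoparib libraries were highest and shared no value with any other group. Its interaction was -0.85 ± 0.18 (adjusted p = 0.00556). ENO2, a glycolytic enolase best known from neurons, behaved differently with enzalutamide alone. It was at 2.04, 2.1 and 2.1 CPM with DMSO, 16.7, 16 and 15.6 with enzalutamide, 3.73, 3.57 and 3.5 with talazoparib and 12.8, 12.8 and 13.7 with the combination, so that both drugs raised it alone and talazoparib lowered it in the presence of enzalutamide (steps of 0.79 and -0.30, interaction -1.09 ± 0.13, adjusted p = 3.29e-07).

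Abundant enzymes moved in the same sense. LDHA, the lactate dehydrogenase subunit that turns pyruvate into lactate, stood at 1168, 1140.0 and 998 CPM with DMSO, 650.3, 663 and 569.9 with enzalutamide, 1238, 1445 and 1404 with talazoparib and 527, 484 and 471 with the combination. Talazoparib libraries were above all DMSO libraries and combination libraries below all enzalutamide libraries. The steps were 0.31 and -0.35, with an interaction of -0.65 ± 0.12 (adjusted p = 0.00219). For PGK1, phosphoglycerate kinase, the interaction was -0.63 ± 0.13 (steps of 0.43 and -0.20), and for GAPDH, the glycolytic dehydrogenase often used as a reference transcript, it was -0.31 ± 0.039 (steps of 0.12 and -0.20). Outside glycolysis, the angiogenic factor VEGFA gave -0.62 ± 0.096 and the mitophagy receptor BNIP3 gave -0.76 ± 0.17. LDHA, PGK1, GAPDH, VEGFA and BNIP3 were picked for the text after their values were seen. The sorting by sum divided the 22 genes evenly, with 11 antagonized and 11 enhanced, since in the enhanced ones the fall with enzalutamide was larger in size than the change with talazoparib.

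**Figure D2:**
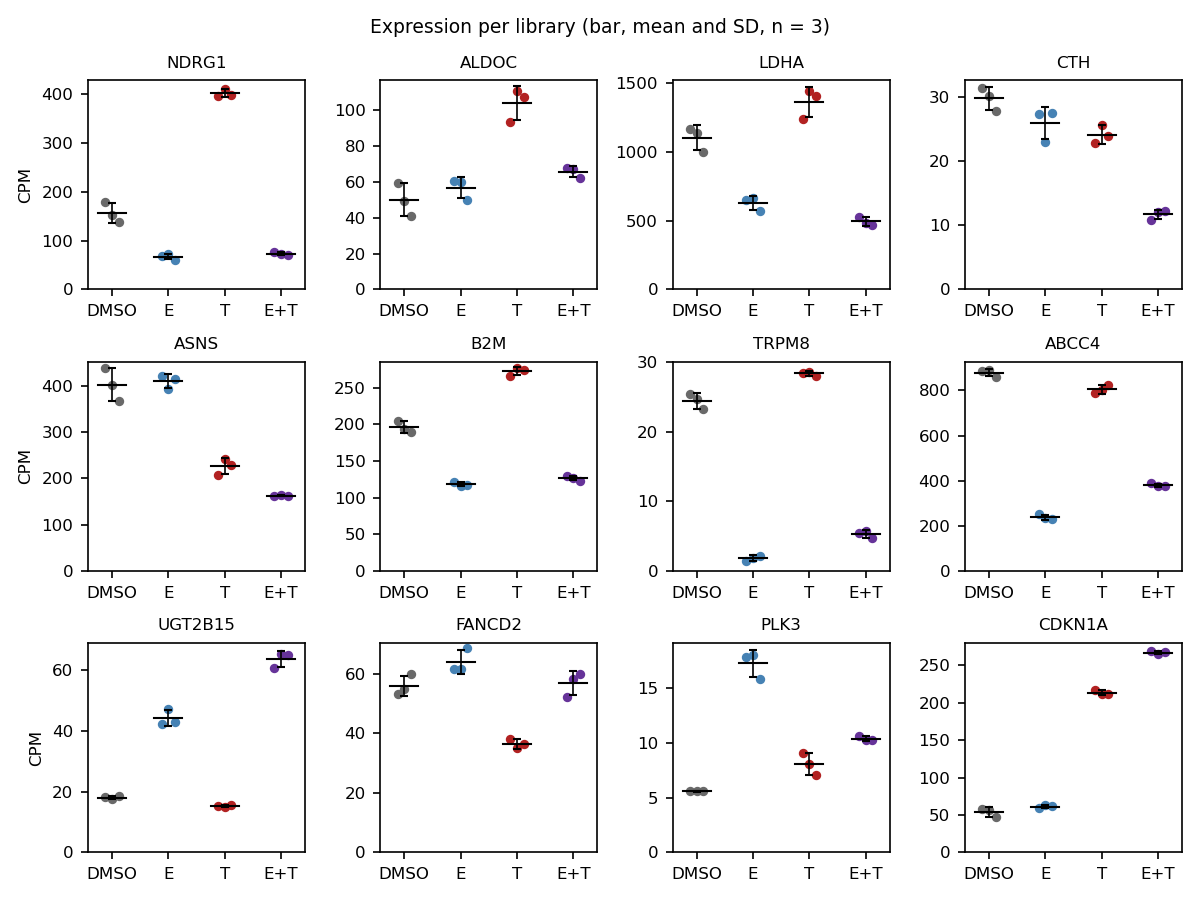
CPM of 12 genes in each library, by group (DMSO, E for enzalutamide, T for talazoparib, E+T for the combination), with the mean and SD of 3 replicates as bars. NDRG1 reaches 396 to 411 CPM with talazoparib and stays at 70.9 to 76.4 with the combination, whereas ABCC4 is higher in the combination than with enzalutamide alone.

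The core of the hypoxia response element, ACGTG, lies in several of these promoters. Sequences are the 250 bases before the RefSeq gene start (GRCh38.p14), 5′ to 3′ on the gene's strand, for the first start listed, and capitals mark ACGTG or its reverse complement CACGT. They are shown for ENO2, ALDOC, LDHA and PGK1 because these 4 enzymes are described above and hold the motif.
ENO2, chr12:6914330-6914579, plus strand: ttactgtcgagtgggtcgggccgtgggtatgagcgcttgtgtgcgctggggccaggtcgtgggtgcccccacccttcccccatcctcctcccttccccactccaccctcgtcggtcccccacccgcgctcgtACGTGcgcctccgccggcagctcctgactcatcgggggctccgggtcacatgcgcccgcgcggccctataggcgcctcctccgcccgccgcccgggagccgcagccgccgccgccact
ALDOC, chr17:28576896-28577145, minus strand: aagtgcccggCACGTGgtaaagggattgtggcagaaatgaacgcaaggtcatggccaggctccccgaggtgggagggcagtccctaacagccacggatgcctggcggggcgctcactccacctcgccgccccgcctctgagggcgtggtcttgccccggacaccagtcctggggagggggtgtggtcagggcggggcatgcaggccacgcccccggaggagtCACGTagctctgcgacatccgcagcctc
LDHA, chr11:18394313-18394562, plus strand: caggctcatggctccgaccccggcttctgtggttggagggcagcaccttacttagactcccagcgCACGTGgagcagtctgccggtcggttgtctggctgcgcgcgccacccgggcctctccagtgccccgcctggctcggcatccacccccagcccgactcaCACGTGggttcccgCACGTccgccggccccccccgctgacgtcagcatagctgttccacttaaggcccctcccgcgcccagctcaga
PGK1, chrX:78103998-78104247, plus strand: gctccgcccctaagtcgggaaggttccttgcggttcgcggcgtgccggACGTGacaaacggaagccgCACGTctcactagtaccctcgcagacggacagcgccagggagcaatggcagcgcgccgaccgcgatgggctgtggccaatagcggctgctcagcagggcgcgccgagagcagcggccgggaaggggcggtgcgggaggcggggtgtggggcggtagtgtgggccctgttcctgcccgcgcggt
ENO2 holds the motif once, and where the letters run CACGTG, as in ALDOC and LDHA, both strands carry it at overlapping positions. Among the 22 members with a negative interaction, 19 had a listed promoter and 10 of these (52.6%) held the motif on either strand. It was in 2 of 9 promoters of members without a called interaction, in 22.9% of the 12233 promoters of genes tested and in 18.7% of all 27305 promoters listed. A match describes these letters only and says nothing of binding.

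ATF4 is the transcription factor that switches on amino acid synthesis and transport when amino acids are short or proteins misfold. Of 33 genes of its amino acid response, 17 had a negative interaction and none a positive one (7.28% and 5.32% of all genes), with a median of -0.23. In contrast to the hypoxia genes, these genes fell with talazoparib alone (28 lower, 1 higher) and fell with talazoparib on enzalutamide (28 lower), and 27 members had the larger step in the presence of enzalutamide. Of the called members 14 were enhanced and 3 antagonized.

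CTH, the cystathionine lyase that makes cysteine (chromosome 1, 70411218 to 70439851), held 31.4, 30.0 and 27.8 CPM with DMSO, 27.3, 22.9 and 27.4 with enzalutamide, 22.8, 25.6 and 23.8 with talazoparib and 10.8, 12 and 12.2 with the combination. The combination libraries lay below every library of the other groups, whereas the single-agent libraries overlapped each other. Its interaction was -0.85 ± 0.099 (adjusted p = 2.27e-07).

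ASNS, asparagine synthetase, held 438, 402 and 366 CPM with DMSO, 421, 393 and 414 with enzalutamide, 207, 242 and 229 with talazoparib and 161, 164 and 163 with the combination. The enzalutamide libraries lay within the DMSO range, and the combination libraries lay below all talazoparib libraries. The talazoparib step went from -0.83 to -1.33 (interaction -0.50 ± 0.087, adjusted p = 0.00123). The ATF4 transcript itself went from a step of -0.50 to -0.73 (interaction -0.23 ± 0.039, adjusted p = 0.000108). TRIB3, a pseudokinase induced by ATF4, had an interaction of -0.35 ± 0.081, MTHFD2, a mitochondrial folate enzyme, -0.29 ± 0.043, and the serine synthesis enzyme PSAT1 -0.22 ± 0.065. The PSAT1 call was lost under several alternatives, with total counts and without any of 8 of the 12 libraries among them. DDIT4, an inhibitor of mTORC1 signaling that also answers to hypoxia, was the exception in direction: talazoparib raised it alone (0.62) and its step with enzalutamide was 0.079 (interaction -0.54 ± 0.14, adjusted p = 0.0187). That call was lost with the 12 libraries alone and without DMSO replicate C, talazoparib replicate B, or combination replicate B or C. ASNS, ATF4, TRIB3, MTHFD2 and PSAT1 were picked after their values were seen.

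The amino acid response element, searched as TGATGNAA on both strands, was found in 1 of the 13 listed promoters of the 17 called members, that of ASNS, in 2 of the 14 listed promoters of the 16 members without a called interaction, and in 1.41% of promoters of genes tested. The ASNS promoter is shown with the match in capitals.
ASNS, chr7:97872409-97872658, minus strand: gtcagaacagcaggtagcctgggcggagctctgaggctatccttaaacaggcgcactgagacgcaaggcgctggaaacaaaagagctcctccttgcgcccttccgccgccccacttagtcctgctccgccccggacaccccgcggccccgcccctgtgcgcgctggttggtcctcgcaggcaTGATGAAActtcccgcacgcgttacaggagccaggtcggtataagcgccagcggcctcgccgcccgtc

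Called genes that charge tRNA or fold secreted proteins were all negative too. Of 35 aminoacyl-tRNA synthetase genes 15 had a negative and none a positive interaction (7.28% and 5.32% of all genes, median -0.12), and all 15 were enhanced. The larger ones were GARS1 (-0.36 ± 0.046), MARS1 (-0.33 ± 0.039) and CARS1 (-0.32 ± 0.058). Of 30 genes for ER chaperones and the unfolded protein response 19 were negative and none positive (beside the same shares of all genes, median -0.16), and 17 of them were enhanced. In this list talazoparib alone raised 5 genes and lowered 5, near the shares of all genes (18.4% and 15.4%), but with enzalutamide it lowered 22 and raised none (17.9% and 16.5%). HSPA5, the main ER chaperone (BiP), turned from a rise into a fall (steps of 0.18 and -0.12, interaction -0.29 ± 0.036). XBP1, a transcription factor of the unfolded protein response, fell in both settings (steps of -0.28 and -0.74, interaction -0.46 ± 0.051, adjusted p = 1.69e-07). The receptor KDELR3, which returns chaperones to the ER, had an interaction of -0.60 ± 0.11.

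**Figure D3:**
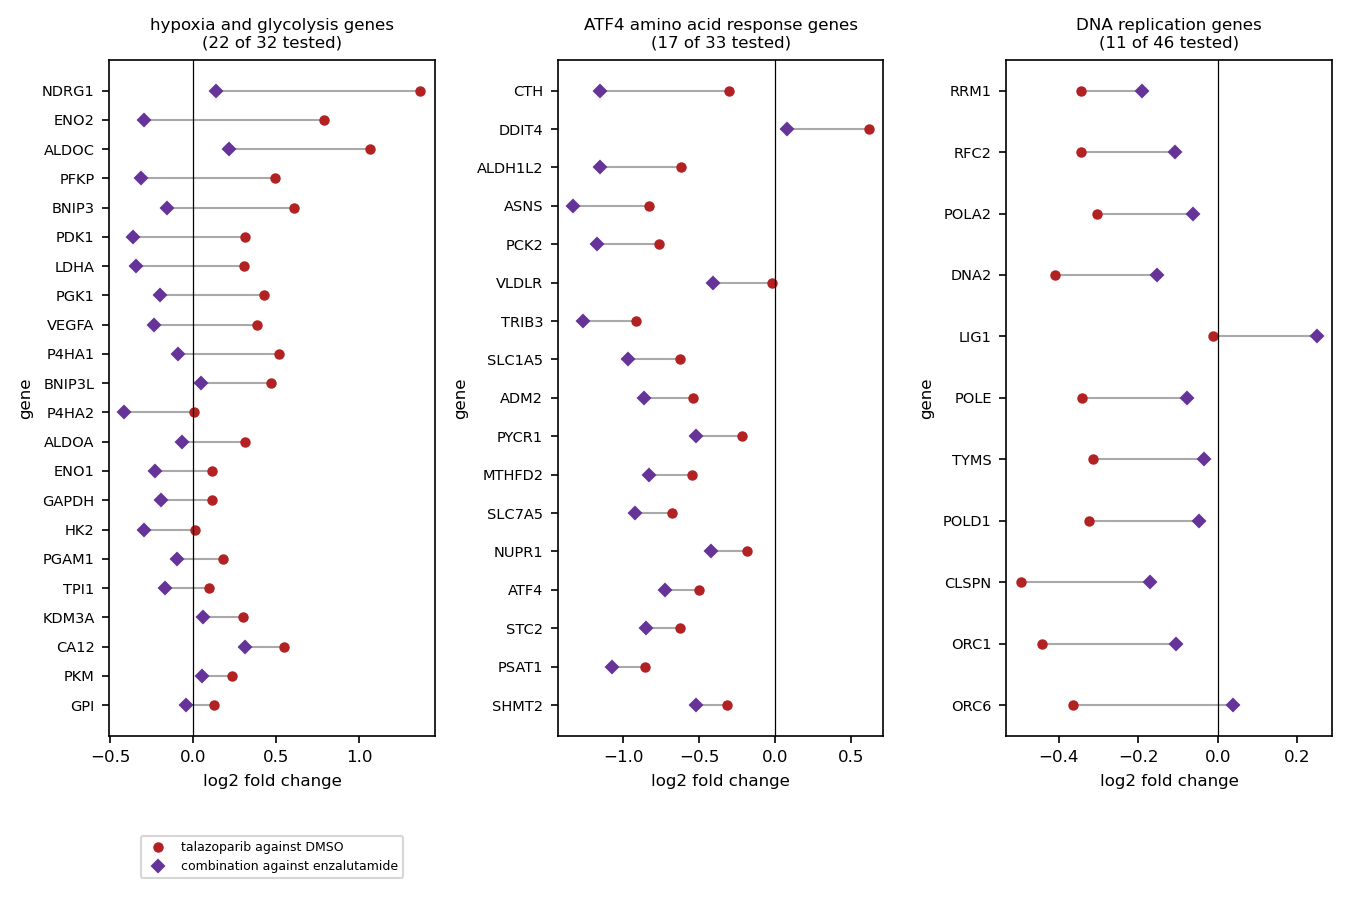
Log2 fold change of talazoparib against DMSO (circles) and of the combination against enzalutamide (diamonds) for the members with a called interaction in 3 gene lists. In the hypoxia and glycolysis list the circles are at or right of 0 and the diamonds cluster around or below it, in the ATF4 list both lie left of 0 for most genes, and in the DNA replication list the diamonds are nearer to 0 except for LIG1.

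In DNA replication and repair the called genes were mostly positive. Talazoparib alone lowered 43 of 46 DNA replication genes, and with enzalutamide it lowered 32. The list held 11 positive interactions and no negative one (5.32% and 7.28% of all genes, median 0.15), and 10 of the 11 were antagonized. Its positive count was 15 with total-count scaling and 16 with DESeq2. In homologous recombination and Fanconi anemia genes talazoparib lowered 30 of 38 alone and 23 with enzalutamide, with 8 positive interactions and 1 negative (median 0.14). Here the positive count was 10 with total-count scaling and 11 with DESeq2. FANCD2, which is ubiquitinated when replication forks stall at crosslinks (chromosome 3, 10026370 to 10101932), held 53.2, 54.9 and 59.8 CPM with DMSO, 61.8, 61.5 and 68.7 with enzalutamide, 38.1, 35 and 36.3 with talazoparib and 52.4, 58.4 and 60.0 with the combination. The talazoparib libraries lay below all the others and the enzalutamide libraries above all the others, while combination and DMSO libraries overlapped. The steps were -0.62 and -0.17 (interaction 0.45 ± 0.082, adjusted p = 0.000579).

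FANCA, of the Fanconi core complex, gave 0.42 ± 0.092, POLQ, the polymerase of theta-mediated end joining, 0.40 ± 0.078, and BRCA1 0.28 ± 0.072 (adjusted p = 0.00943). In the replication list the origin recognition subunits ORC6 (0.40 ± 0.11) and ORC1 (0.34 ± 0.088) and the checkpoint adaptor CLSPN (0.33 ± 0.084) were largest. The ORC1 call was lost without DMSO replicate C, and the CLSPN call with the 12 libraries alone. BARD1, the partner of BRCA1, was the 1 repair gene of positive sign that was enhanced rather than antagonized: enzalutamide raised it by 1.11, and the talazoparib step went from -0.33 to 0.06. PALB2, which links BRCA1 to BRCA2, was the 1 negative member (-0.26 ± 0.067). BRCA2 had an interaction of 0.44 ± 0.15 that missed the threshold (adjusted p = 0.0703), and it passed with DESeq2, with the stricter filter and without DMSO replicate A, talazoparib replicate A or combination replicate A.

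Cell cycle genes were read by phase. Of 43 S phase genes, which share members with the replication list, 6 had a positive and 1 a negative interaction, beside 5.32% and 7.28% of all genes, and their median was 0.15. The positive count was 9 with total-count scaling and 12 with DESeq2, which also called 3 positive G2/M genes. Of 54 G2/M genes 1 was positive (1.85%) and 2 negative (3.70%), shares below those of all genes (median 0.0056), with talazoparib lowering 52 alone and 50 on enzalutamide. NCAPD2, a condensin subunit, was the positive member (0.23 ± 0.052), and the negative ones were the histone chaperone ANP32E (-0.30 ± 0.067) and the spindle protein DLGAP5 (-0.19 ± 0.053). The DLGAP5 call was lost without talazoparib replicate A or C or combination replicate A or C. The S and G2/M lists were not tested against each other.

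Most p53 target genes rose with talazoparib in both settings, 37 of 45 alone (18.4% of all genes) and 36 with enzalutamide (16.5%). Their interaction was positive in 8 and negative in 1, beside 5.32% and 7.28% of all genes, with a median of 0.13. CDKN1A, the p21 inhibitor of cyclin-dependent kinases, held 58.2, 57.3 and 46.8 CPM with DMSO, 58.9, 62.8 and 61.5 with enzalutamide, 217, 211 and 212 with talazoparib and 268, 265 and 267 with the combination. The combination libraries were the highest, but the steps of 1.98 and 2.13 gave an interaction that missed the threshold (0.14 ± 0.073, adjusted p = 0.241), except without DMSO replicate C.

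Among members that passed, SESN1, a stress-induced inhibitor of mTORC1, gave 0.34 ± 0.086, SUSD6 gave 0.34 ± 0.077, and MDM2, the ligase that degrades p53, gave 0.21 ± 0.041. All 3 rose with talazoparib alone and rose further with it on enzalutamide. The exception was PLK3, a stress-responsive polo-like kinase (chromosome 1, 44800377 to 44805990), at 5.6, 5.65 and 5.57 CPM with DMSO, 17.9, 18.1 and 15.9 with enzalutamide, 9.07, 8.11 and 7.06 with talazoparib and 10.6, 10.2 and 10.2 with the combination. Either drug alone raised it, and the combination lay between talazoparib and enzalutamide (interaction -1.25 ± 0.14, adjusted p = 2.54e-07).

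Called androgen-induced genes lay in both directions. Enzalutamide lowered 45 of 47 members (26.3% of all genes), talazoparib alone raised 32 and lowered 8, and on enzalutamide talazoparib raised 23 and lowered 7. Their interaction was positive in 9 (19.1%) and negative in 12 (25.5%), beside 5.32% and 7.28% of all genes (median -0.041). Of the positive members 8 were antagonized and STEAP2, a metalloreductase, was enhanced, and of the negative ones 11 were enhanced and NDRG1 was antagonized.

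TRPM8, a cold-sensing calcium channel and classic androgen-induced gene (chromosome 2, 233917373 to 234019522), held 25.4, 24.7 and 23.2 CPM with DMSO, 1.37, 1.91 and 2.2 with enzalutamide, 28.5, 28.7 and 28 with talazoparib and 5.46, 5.73 and 4.68 with the combination. The combination libraries stood above all enzalutamide libraries but far below the DMSO ones. The talazoparib step was 0.22 alone and 1.51 on enzalutamide (interaction 1.29 ± 0.12, adjusted p = 5.08e-09).

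ABCC4, a nucleotide and prostaglandin exporter, held 886, 889.5 and 859.8 CPM with DMSO, 250.5, 233 and 232 with enzalutamide, 788, 799.5 and 826 with talazoparib and 388, 376 and 378 with the combination. Talazoparib lowered it slightly alone (-0.13) and raised it on enzalutamide (0.68), an interaction of 0.80 ± 0.039 (adjusted p = 2e-16). ZBTB16, a zinc finger repressor, gave 1.12 ± 0.095. For TRPM8 and ZBTB16 the sign holds for factors only: as a difference of CPM the departure was -0.496 and -1.63. ABCC4 was picked after its values were seen.

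In the negative direction FKBP5, a chaperone of steroid receptors, rose with talazoparib alone (0.35) and had a step of 0.014 on enzalutamide (interaction -0.33 ± 0.037, adjusted p = 1.3e-07). KLK3, which encodes PSA, did not pass (-0.09 ± 0.063, adjusted p = 0.417). TMPRSS2, the serine protease often fused to ERG, did not pass either (-0.29 ± 0.11, adjusted p = 0.124), but did with DESeq2 and without DMSO replicate A.

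Genes that rise when androgen is withdrawn had 4 positive interactions and no negative one among 8 tested (5.32% and 7.28% of all genes), and all 4 were enhanced. Enzalutamide alone raised 5 of the 8 (27.0% of all genes) and lowered 2, near the 26.3% of all genes. UGT2B15, which inactivates androgens by glucuronidation, went from 44.1 ± 2.62 CPM (SD, n = 3) with enzalutamide to 63.6 ± 2.67 with the combination, and from 18 ± 0.506 with DMSO to 15.3 ± 0.39 with talazoparib (interaction 0.76 ± 0.07). UGT2B17 gave 1.11 ± 0.12. These 2 genes are near-identical in sequence and reads may be divided between them, so their separate values are uncertain. The receptor tyrosine kinase MET gave 0.75 ± 0.10, as talazoparib lowered it alone (-0.85) and had a step of -0.10 on enzalutamide.

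Of 23 MHC and peptide loading genes 9 had a negative and none a positive interaction (7.28% and 5.32% of all genes, median -0.37). CALR and PDIA3, among the 9, are ER chaperones that the ER list also holds. In the whole list talazoparib raised 9 and lowered 1 alone (18.4% and 15.4% of all genes), whereas on enzalutamide it raised 4 and lowered 4, near the shares of all genes (16.5% and 17.9%). B2M, the invariant chain of MHC class I, held 205, 194 and 189.5 CPM with DMSO, 122, 115.7 and 118 with enzalutamide, 266, 277 and 274 with talazoparib and 129, 127 and 123 with the combination. The talazoparib libraries were the highest, and the combination libraries stood just above the enzalutamide ones (steps of 0.47 and 0.097, interaction -0.38 ± 0.048, adjusted p = 1.01e-06). HLA-B (-0.43 ± 0.099) encodes a class I heavy chain and may share reads with related genes, so its value is uncertain. HLA-DMA, a class II loading factor, gave -0.72 ± 0.15. Of 45 interferon-stimulated genes 6 were negative (13.3%) and 2 positive (4.44%, near the share of all genes), with a median of -0.056, among them the interferon-induced genes IFITM3 (-0.47 ± 0.078), IFI6 (-0.58 ± 0.15) and PARP14 (-0.42 ± 0.10). The IFI6 call was lost without talazoparib replicate C or combination replicate C, and the PARP14 call without talazoparib replicate B. B2M, HSPA5, MDM2 and BARD1 were picked after their values were seen.

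**Figure D4:**
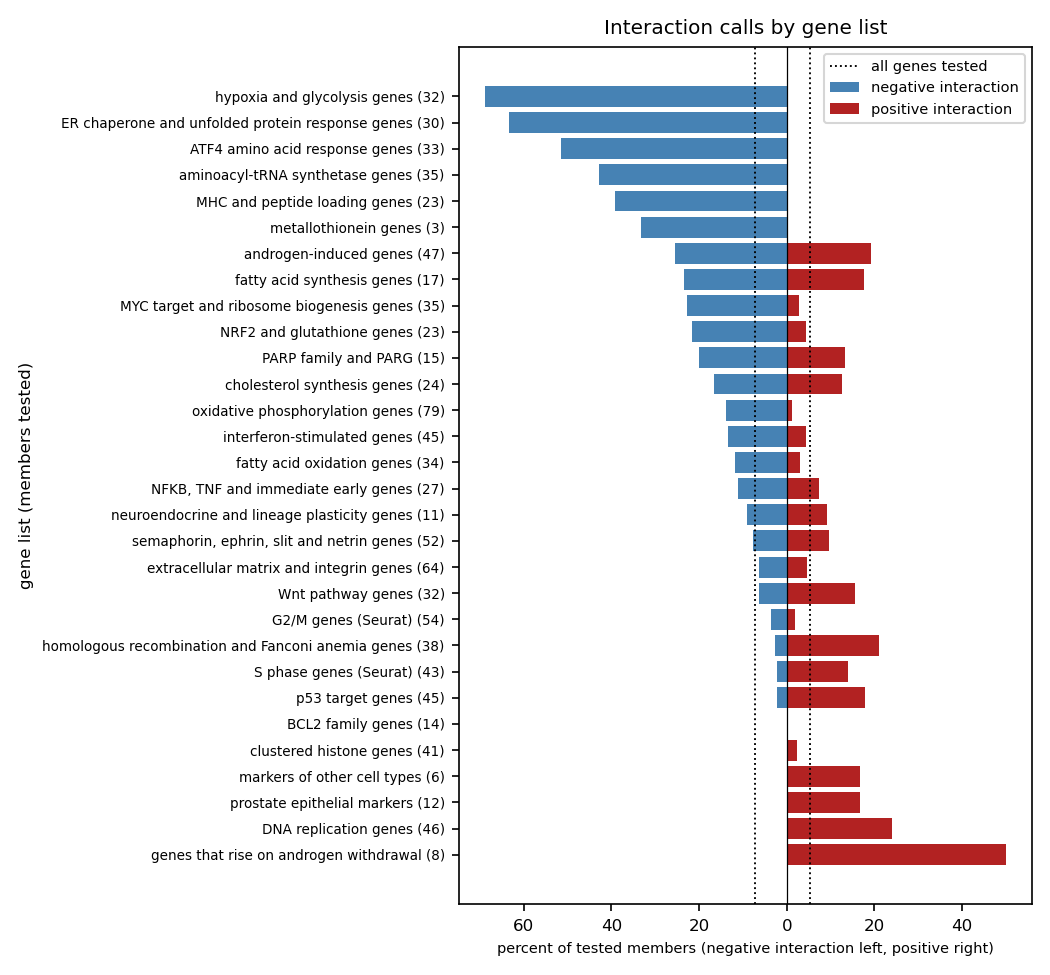
Percent of tested members with a negative (left) or positive (right) interaction in each of 30 gene lists, with the number of members tested in brackets. Dotted lines mark all genes tested, 7.28% negative and 5.32% positive.

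Single departures were ranked among the 2142 called genes with a symbol, a mean of at least 100 counts over the 12 libraries and no group at the floor, and the largest lay mostly outside these lists. Called genes of lower count, among them ITGA11, IFITM1, SEMA4G and OASL (-1.39 to -1.36, named after their values were seen), are not in this ranking. PLOD2, a collagen lysyl hydroxylase, had the most negative value of those ranked, -2.53 ± 0.67 (adjusted p = 0.0224). It held 5.13, 2.71 and 1.8 CPM with DMSO, 1.57, 1.44 and 0.814 with enzalutamide, 5.86, 8.11 and 7.0 with talazoparib and 0.60, 0.377 and 0.439 with the combination. The DMSO libraries were widely spread, and the call was lost on leaving out any of DMSO replicate B, enzalutamide replicate A or B, talazoparib replicate B, or combination replicate B or C. Next came OLFM2, an olfactomedin-domain secreted protein (-1.46 ± 0.25), and ARHGEF25, a guanine nucleotide exchange factor (-1.35 ± 0.26). CYP2U1, a cytochrome P450 of fatty acid hydroxylation (chromosome 4, 107931549 to 107953461), had the smallest SE of the 10 most negative genes ranked. It held 43, 39.5 and 44 CPM with DMSO, 30.7, 30.8 and 31.4 with enzalutamide, 69.9, 66 and 67.8 with talazoparib and 23, 23.4 and 22.1 with the combination, so that the combination was below and talazoparib above every other library (interaction -1.12 ± 0.061, adjusted p = 2.69e-15). MAB21L4 (-1.17 ± 0.20), HPCAL4 (-1.11 ± 0.19) and the actin bundler ESPN (-1.08 ± 0.21) completed the 10 most negative ranked with PLK3, NDRG1 and ENO2. As a difference of CPM the departures of OLFM2 (0.554) and ESPN (0.778) were positive.

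In the positive direction CTNNA2, a neuronal alpha-catenin, led the ranked genes with 1.40 ± 0.38 (adjusted p = 0.0126). With enzalutamide it was close to the limit of detection, at 0.0667, 0.165 and 0.0958 CPM, against 0.50, 0.306 and 0.673 with the combination, and its call was lost without enzalutamide replicate A or C or combination replicate C. As a difference of CPM its departure was -1.89. PLD1, a phospholipase D that makes phosphatidic acid (chromosome 3, 171600404 to 171810950), held 1.29, 1.37 and 0.937 CPM with DMSO, 14.2, 13.9 and 12.9 with enzalutamide, 1.12, 1.17 and 0.827 with talazoparib and 27.8, 24.2 and 28.7 with the combination. Talazoparib libraries overlapped DMSO libraries, and combination libraries lay above all enzalutamide libraries (interaction 1.19 ± 0.21, adjusted p = 0.00012). The cadherin CDH26 (1.12 ± 0.13), the pseudokinase scaffold PRAG1 (1.09 ± 0.14), FCGBP (1.09 ± 0.12) and the long noncoding RNA LINC00342 (1.19 ± 0.22) were also among the 10 largest ranked, together with TRPM8, ZBTB16 and UGT2B17. LRRC37A17P (1.17 ± 0.28) is a pseudogene of a family of near-identical copies, and its value is uncertain.

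The same departure was computed for 5 µM abiraterone and 1 µM olaparib, an ARPi and PARPi pair given for the same 5 days. That interaction shares the DMSO libraries with the one above, so their values are set side by side and only the difference between them, from which DMSO drops out, was tested. The abiraterone and olaparib interaction was positive in 882 genes (4.74%) and negative in 1504 (8.08%). The difference passed the threshold in 596 genes, with 361 (1.94%) higher and 235 (1.26%) lower with enzalutamide and talazoparib. That count was 342 without enzalutamide replicate A, 393 without enzalutamide replicate C, 374 without talazoparib replicate C and 996 without talazoparib replicate A.

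Hypoxia and glycolysis genes were negative with both pairs, 22 of 32 each, and the difference was called in 2, beside 1.94% of all genes called higher and 1.26% lower. NDRG1 had -1.45 ± 0.13 with abiraterone and olaparib. In the ATF4 list the pairs parted: 12 of 33 genes were positive and 1 negative with abiraterone and olaparib, against 17 negative with enzalutamide and talazoparib, and the difference was called as lower with enzalutamide and talazoparib in 18 genes and as higher in none. TRIB3 had 0.39 ± 0.087 with abiraterone and olaparib (difference -0.74, adjusted p = 0.000151), PSAT1 had 0.42 ± 0.066 (difference -0.64, adjusted p = 0.000237) and ATF4 had 0.22 ± 0.039 (difference -0.44, adjusted p = 1.52e-06). Of the aminoacyl-tRNA synthetase genes 12 of 35 were lower in the difference and none higher.

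In the androgen-induced list 9 of 47 genes were higher in the difference (1.94% of all genes) and 1 lower, near the 1.26% of all genes. TRPM8 had 0.70 ± 0.094 with abiraterone and olaparib (difference 0.59, adjusted p = 0.0172). CDKN1A had a negative interaction with abiraterone and olaparib (-0.29 ± 0.072), and its difference between pairs passed (0.43, adjusted p = 0.00884). The doses are those the study chose, and the paper describes the effects of the single drugs on viability as relatively similar. Dose strength was not compared between the pairs here, so a difference between drugs and a difference in dose strength cannot be told apart.

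**Figure D5:**
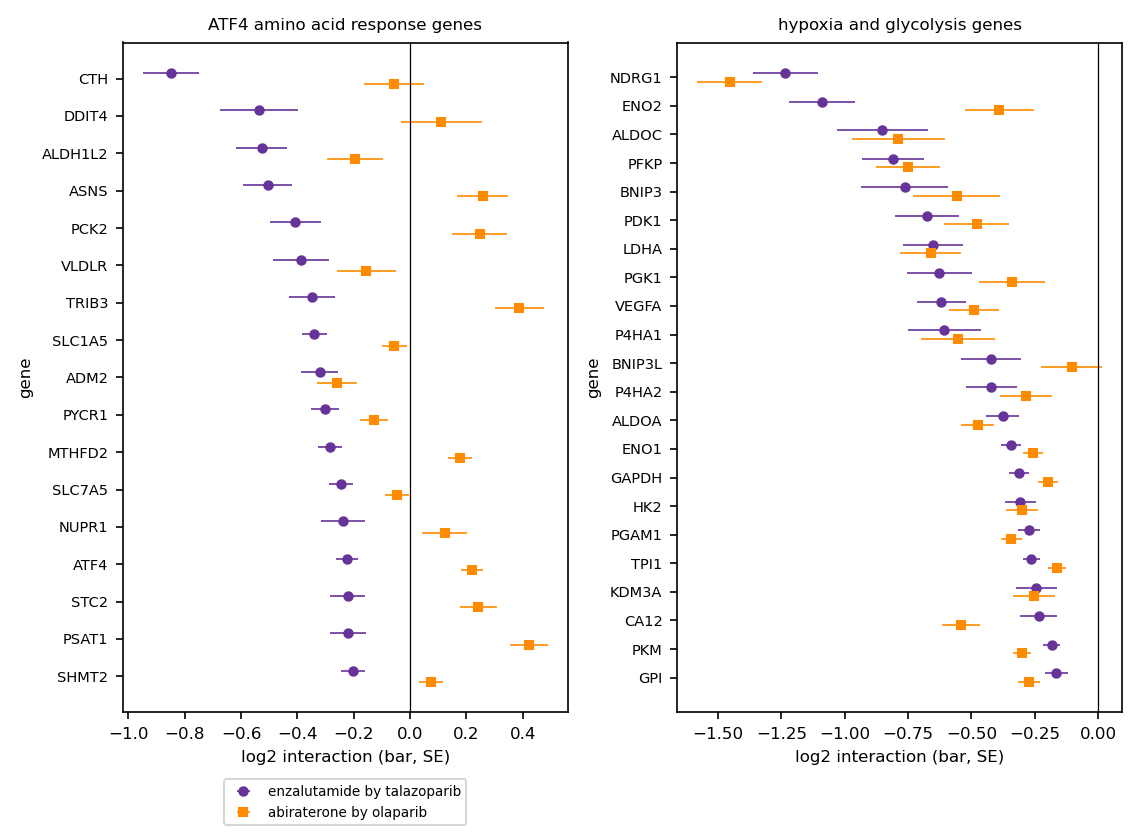
Log2 interaction with its SE for the members called with enzalutamide and talazoparib, beside the abiraterone and olaparib value for the same genes. ATF4 genes lie left of 0 with enzalutamide and talazoparib, and many of them, such as TRIB3 and PSAT1, right of 0 with abiraterone and olaparib, whereas hypoxia and glycolysis genes lie left of 0 with both.

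Libraries that the interaction did not use gave a separate sorting of the genes. From the time course, genes were sorted by 1 µM olaparib against DMSO at day 5 (4324 higher and 4242 lower of 18502 tested), and from the other pair by abiraterone plus olaparib against olaparib. Of 1547 genes that olaparib raised and abiraterone lowered on olaparib, 392 (25.3%) had a negative interaction of enzalutamide and talazoparib and 53 (3.43%) a positive one. Of 954 genes with the reverse sorting 207 (21.7%) were positive and 23 (2.41%) negative. Genes raised by both numbered 1524, with 177 (11.6%) positive and 149 (9.78%) negative, and among 1843 lowered by both 69 (3.74%) were positive and 247 (13.4%) negative. Of all genes tested, 5.32% were positive and 7.28% negative. With total-count scaling the negative genes in the first sorting numbered 255 and the positive genes in the reverse sorting 330. The negative genes in the first sorting numbered 230 without combination replicate C, 254 without combination replicate B, 243 without talazoparib replicate B and 246 without talazoparib replicate C. The shares were thus highest, in opposite directions, where olaparib alone and abiraterone on olaparib moved a gene in opposite directions in those other libraries. The abiraterone step was taken on olaparib, so it includes the interaction of that pair, and this is not a sorting by single drugs.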

How the data were processed

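C4-2B RNA was sequenced on a NovaSeqX after KAPA stranded mRNA preparation. The authors ran nf-core/rnaseq (Trim Galore, STAR on GRCh38, Salmon, GENCODE v45) and deposited estimated counts per gene, which are whole numbers here. Salmon divides reads among similar transcripts, so near-identical genes are uncertain. Whether replicates A, B and C were separate cultures is not stated in the sources used here, so p-values measure the spread between these samples, which may be technical.

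Counts were fitted with edgeR 4.0.16 (R 4.3.3; filterByExpr, TMM, quasi-likelihood F-test with robust dispersion) over all 21 panel libraries of 7 groups without covariates, and p-values were Benjamini-Hochberg adjusted over 18625 of 63187 genes, with a threshold of 0.05. Interaction and difference were contrasts of this fit. The SE of each was derived from its test, as the absolute log2 value divided by the square root of F. The time course was fitted separately over its 18 libraries. CPM values use the effective library sizes. A group is at the floor when each of its libraries holds at most 3 counts, which was so for 10 called genes. The script was tested on simulated data. Depth was 29391817 to 49833473 counts a library.

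Genes, the 30 lists and the comparisons were chosen with earlier results of these data known. Named genes were the 10 largest in each direction and the 3 largest in each list among genes with a symbol, a called interaction, a mean of at least 100 counts and no group at the floor, together with 9 reference genes, whatever their call, and the 3 largest called differences in each direction. The text describes part of these genes, and some are not reported here. Gene coordinates come from GENCODE v44 (GRCh38) and promoters from RefSeq (GRCh38.p14). Replicate letters did not pair samples, so no block was used. Alternatives were RLE and total-count scaling, other filters, DESeq2 1.42.0, the 12 libraries alone, stricter thresholds, the replicate block and leaving out each library.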

Additional observations from a re-analysis of the deposited data

Results flagged for a closer look

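The interaction of enzalutamide and talazoparib differed from that of abiraterone and olaparib, by edgeR's quasi-likelihood test of the difference itself, in 29 of the 114 genes named by the rule or picked for the text. Among all genes tested the difference was higher in 1.94% and lower in 1.26%. LINC01133, S100P, TNNT1, RAB43, ARHGAP11B and GPR137C were named for the size of this difference. Most of the others were named for a large enzalutamide and talazoparib interaction, which is a part of the difference. The count of 29 is therefore no result about the named genes. Values are log2 differences, enzalutamide and talazoparib minus abiraterone and olaparib, and the dose strength of the pairs was not compared.

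Of these, 15 were lower with enzalutamide and talazoparib. The largest were LINC01133 (-1.13), S100P (-1.07) and TNNT1 (-1.04), a troponin of slow muscle. Among amino acid response genes they were CTH (-0.792), ASNS (-0.762), TRIB3 (-0.737), PSAT1 (-0.644), MTHFD2 (-0.463) and ATF4 (-0.444), and among tRNA synthetases GARS1 (-0.477), CARS1 (-0.401) and MARS1 (-0.303). ENO2 (-0.699), XBP1 (-0.436) and the nucleolar protein GNL3 (-0.177) complete this direction.

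The other 14 were higher. RAB43 (1.3), ARHGAP11B (0.865), GPR137C (0.715) and FCGBP (0.63) were largest. RAB43, LINC01133, S100P and CDKN1A passed for the difference but not for the enzalutamide and talazoparib interaction itself. The S100P interaction did pass with DESeq2, with the replicate block and without DMSO replicate A or talazoparib replicate A, and that of CDKN1A without DMSO replicate C. ZBTB16 (0.626) and TRPM8 (0.591) are androgen-induced, and ACACA (0.306) and ELOVL7 (0.223) belong to fatty acid synthesis. CDKN1A (0.434) is a p53 target, H2BC21 (0.473) a histone gene with a polyadenylated transcript, POLR1A (0.365) the largest subunit of RNA polymerase I, LAMA3 (0.296) a laminin chain, NCAPD2 (0.291) a condensin subunit and VWF (0.412) an endothelial marker that these cells expressed at a low level. ARHGAP11B shares most of its sequence with ARHGAP11A, so its value is uncertain.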

How the results depend on the processing

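No called interaction changed direction among the 114 named or picked genes under the 21 alternatives that refitted or re-thresholded the log2 interaction: of their 2394 values 2229 stayed on the same side of the threshold, 153 lost the call and 12 gained it. On the CPM scale, with no test, 6 changed sign: TRPM8 (-0.496 CPM), ZBTB16 (-1.63), CTNNA2 (-1.89), OLFM2 (0.554), ESPN (0.778) and H2BC21 (-23.6). Requiring an absolute log2 change of at least 0.5 left 495 interaction genes (240 positive, 255 negative), 358 antagonized, 137 enhanced, 1363 for talazoparib against DMSO, 1367 for the combination against enzalutamide, 71 for the difference between pairs, and 65 negative and 34 positive in the sortings by other libraries. An adjusted p under 0.01 left 1202 (525 positive, 677 negative), 676 antagonized, 526 enhanced, 183 for the difference, and 218 and 109 in the sortings. With a sum of single-agent changes of at least 0.25 in size 573 enhanced genes were left. DESeq2 called 2654 interaction genes and 1123 differences, and with total-count scaling the sortings gave 255 and 330. Replicate letters did not pair the samples (correlations of deviations -0.209 to 0.124 for the same letter, median -0.045), and with the replicate block 2244 genes were called, 2190 of them shared with the fit without it.

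Leaving out 1 library at a time gave 1684 to 2588 interaction genes, 733 to 1312 positive, 692 (without combination replicate C) to 1427 negative, 917 to 1703 antagonized, 659 to 885 enhanced, 342 to 996 differences and 230 to 403 negative genes in the first sorting. Negative genes were also 751 without talazoparib replicate B, 747 without talazoparib replicate C and 767 without combination replicate B, and the first sorting gave 243, 246 and 254 in turn. The difference gave 393 without enzalutamide replicate C and 374 without talazoparib replicate C. The causes were not tested. Among the named genes CTNNA2 had the lowest count in a library, 2, and PLOD2 and OLFM2 reached 15, so counting error weighs on these values.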

Other observations

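Called lipid genes lay in both directions. Of 24 cholesterol synthesis genes 3 were positive and 4 negative, of 17 fatty acid synthesis genes 3 and 4, and of 34 fatty acid oxidation genes 1 and 4, beside 5.32% and 7.28% of all genes. ELOVL7, a fatty acid elongase, had the largest called value among them (0.66 ± 0.043, edgeR adjusted p = 4.54e-13): it held 476, 484 and 482 CPM with DMSO, 66.4, 74.4 and 71.4 with enzalutamide, 500.1, 478 and 486 with talazoparib and 115, 115.6 and 111 with the combination. The combination libraries lay above all enzalutamide libraries, and the talazoparib libraries overlapped the DMSO ones. ACACA, the acetyl-CoA carboxylase that commits carbon to fatty acids, gave 0.37 ± 0.048, the desaturase SCD -0.31 ± 0.041, and ECI2, an isomerase of unsaturated fatty acid oxidation, -0.55 ± 0.045. STARD4, a sterol carrier, gave 0.48 ± 0.082.

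The lists in this paragraph are given beside 5.32% positive and 7.28% negative among all genes. Of 79 oxidative phosphorylation genes 1 was positive and 11 negative, and the negative count fell to 3 with total-count scaling. MYC target and ribosome biogenesis genes had 1 positive and 8 negative of 35, NRF2 and glutathione genes 1 and 5 of 23, NFKB, TNF and immediate early genes 2 and 3 of 27, PARP family genes 2 and 3 of 15, Wnt pathway genes 5 and 2 of 32, and semaphorin, ephrin, slit and netrin genes 5 and 4 of 52. Extracellular matrix and integrin genes had 3 (4.69%) and 4 (6.25%) of 64, near the shares of all genes, clustered histone genes 1 and 0 of 41, neuroendocrine and lineage plasticity genes 1 and 1 of 11, prostate epithelial markers 2 and 0 of 12, markers of other cell types 1 and 0 of 6, and metallothionein genes 0 and 1 of 3. None of 14 BCL2 family genes had a called interaction. In the Wnt list FZD4, a Wnt receptor, gave 0.48 ± 0.052 and RNF43, a ligase that removes such receptors, 0.67 ± 0.14, whereas LEF1, a transcription factor of the pathway, gave -0.62 ± 0.16. The other negative member was WNT10A, a Wnt ligand (-0.758 ± 0.256), picked after its values were seen. FTL, the ferritin light chain, rose with talazoparib by 0.79 alone and by 0.44 on enzalutamide (interaction -0.35 ± 0.053). PARP1 had an interaction of -0.064 ± 0.03 that missed the threshold (edgeR adjusted p = 0.167).

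On the CPM scale, where additivity means equal differences instead of equal factors, 2292 of the 2346 called genes kept the sign of their departure and 54 did not, with 1354 antagonized and 992 enhanced. Of the 106 named or picked genes with a called interaction 6 changed sign, 5 of which are among the 20 largest departures of genes with a mean of at least 100 counts: TRPM8, ZBTB16, CTNNA2, OLFM2 and ESPN. The remaining one is H2BC21.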
